A study of Oryza sativa with 12 samples.

Results

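Leaves of osbzip62 mutants were compared with leaves of Nipponbare plants, the cultivar in which the mutants were made, to ask which transcripts differ when OsbZIP62 is disrupted and no stress is applied. The comparison covers every gene that passed a filter on low counts, which left 20398 of the 35679 genes in the tables, and it uses 6 of the 12 libraries of the series. The osbzip62 group had 3 libraries of a CRISPR/Cas9 line named C54, and the WT group had 3 libraries of untransformed Nipponbare. Both groups were sampled at the four-leaf stage, grown in culture solution in a chamber at 28°C in the light and 24°C in the dark, with 30 plants pooled per library. Another line exists in the study, but the libraries hold only C54, so an effect of the mutation and an effect of that line cannot be told apart. The sources used here describe the mutation as homozygous and do not print the edited alleles as text. The other 6 libraries, OsbZIP62V plants that carry OsbZIP62 fused to an activation domain and their wild type Kitaake, are used only where the same genes are set beside each other in both lines.

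OsbZIP62 is a basic leucine zipper (bZIP) transcription factor. Proteins of this family bind DNA as dimers through a basic region, many of them at ABRE or G-box elements, and several rice members act in the response to abscisic acid (ABA), the hormone that closes stomata and switches on dehydration genes when water is short. Leaves at this stage are mostly photosynthetic tissue. Plastid ribosomes and chlorophyll synthesis are typical of growing leaf tissue, and chlorophyll breakdown and nutrient export are typical of ageing leaf tissue.

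The mutation was directed by a guide of 19 bases against OsbZIP62 (LOC_Os07g48660, chromosome 7). It is shown because it defines the mutant, with the 10 bases nearest to the scaffold in capitals. It holds 11 G or C bases.
osbzip62 guide: gcgtgtataACCGCGTGGA

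OsbZIP62 itself had 0.975, 0.583 and 0.334 CPM (counts scaled to a common library size) in osbzip62 replicates 1, 2 and 3, against 0.163, 0.829 and 0.0671 CPM in the Nipponbare replicates. The groups overlapped, and the gene did not pass the test (log2 fold change 0.82, SE 0.88, edgeR adjusted p = 0.67). Since a small edit need not alter the amount of a transcript, and counts were this low, its level is no check of the genotype.

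Total counts were 17152945 to 18534258 in the osbzip62 libraries and 16917303 to 18226331 in the Nipponbare libraries, and chlorophyll-binding protein transcripts of leaves were present in all 6. The Nipponbare libraries were less alike. The Spearman correlation between libraries was 0.964 to 0.980 within osbzip62, 0.875 to 0.948 within Nipponbare and 0.864 to 0.959 between the groups. On the first principal component (53.2% of the variance) osbzip62 replicates had coordinates of 47.3, -11.4 and 61.5, against -110.6, -49.7 and 62.9 for Nipponbare, so this axis separated Nipponbare libraries from each other rather than the groups. The groups separated on the second component (25.7%), where osbzip62 lay between -41.5 and -31.6 and Nipponbare between 6.69 and 85.1. Over all tested genes the median range of the 3 libraries was 0.44 log2 units in osbzip62 and 0.68 in Nipponbare. The range exceeded 1 log2 unit, a 2-fold spread within a group, for 3158 genes (15.5%) in osbzip62 and 6465 genes (31.7%) in Nipponbare. The labels do not give a batch, a harvest time or a leaf position that differs between the Nipponbare libraries.

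A gene is called below when the edgeR quasi-likelihood test gave a Benjamini-Hochberg adjusted p under 0.05 over all tested genes and the absolute log2 fold change was over 1. By this rule 77 genes rose in osbzip62 (0.377% of those tested) and 9 fell (0.0441%), 86 in all (0.422%). An unadjusted p under 0.05 was reached by 1769 genes that were higher (8.67%) and 1670 that were lower (8.19%). The 3 osbzip62 libraries lay entirely above the 3 Nipponbare libraries for 2620 genes (12.8%) and entirely below them for 2011 genes (9.86%). Exact permutation of the group labels of 3 and 3 libraries has a smallest possible two-sided p of 0.1 for any 1 gene. For all 86 called genes the groups were apart, and the gap between them, 0.84 to 9.84 log2 units, was wider than the range of the Nipponbare libraries. The called genes had a median Nipponbare range of 0.42 log2 units. The test favours genes of wide gap and small spread, so the gap and this range follow in part from the call rule. Among the 2684 tested genes with an absolute log2 fold change over 1, the gap was wider than the Nipponbare range for 472.

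**Figure D1:**
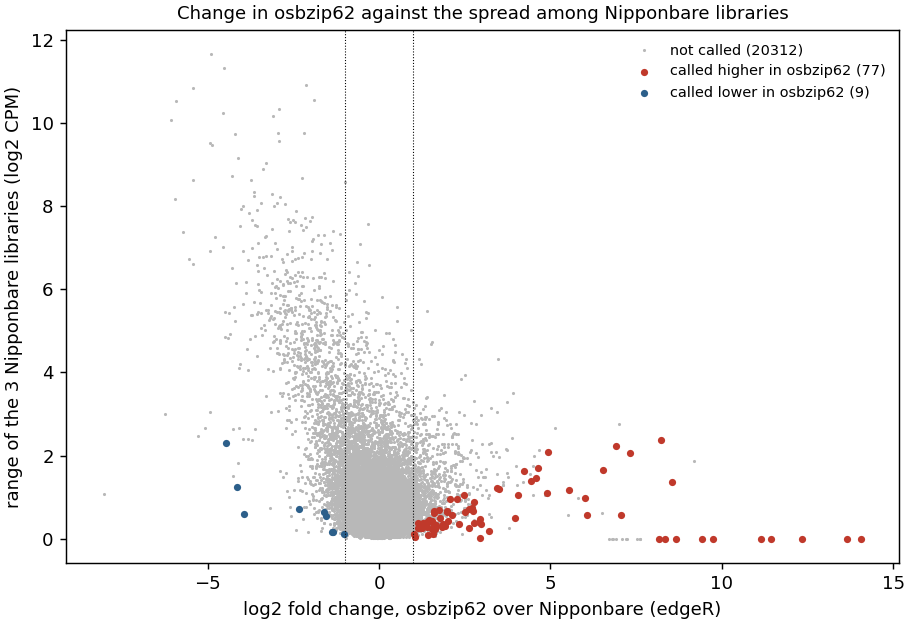
Each point is 1 of 20398 tested genes, with the log2 fold change of osbzip62 over Nipponbare on the x axis and the range of the 3 Nipponbare libraries in log2 CPM on the y axis. Red points are the 77 genes that rose, blue points the 9 that fell, and the wide ranges stand on the left, among genes with a negative fold change.

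The spread of the Nipponbare libraries was unequal between directions. A log2 fold change below -1 was found for 1700 genes, with a median Nipponbare range of 2.53 log2 units, and 1016 of them (59.8%) had a range over 2. The groups were apart for 472 of these (27.8%), and 9 were called. A log2 fold change above 1 was found for 984 genes, with a median Nipponbare range of 1.01, and the groups were apart for 839 of these (85.3%), of which 77 were called. Among the 1700 genes with lower values, Nipponbare replicate 1 was the highest of its group for 1245 (73.2%), and replicate 3 was the lowest for 1386. The fold change uses the same Nipponbare values as the range. A single high Nipponbare library both lowers the fold change and widens the range, so these contrasts follow in part from the sorting by direction.

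The calls also depended on single libraries. No gene was called in either direction without osbzip62 replicate 1 or without osbzip62 replicate 3 (edgeR; 1260 higher and 860 lower at an unadjusted p under 0.05 without replicate 1, and 1112 and 884 without replicate 3). Without osbzip62 replicate 2, 9 genes were called higher and 0 lower. Without Nipponbare replicate 1 the calls were 52 higher (0.25%) and 6 lower (0.0289%, both together 0.279%), and without replicate 2 they were 15 and 0. Without Nipponbare replicate 3 they were 234 higher (1.1%) and 297 lower (1.4%), together 2.51% of genes, and these held all 77 of the higher genes and 8 of the 9 lower genes. A fit of 5 libraries has less to estimate the spread from, whichever library is left out. Across the 6 fits, 35 of the higher genes were called once, 27 in 2 fits, 9 in 3 and 6 in 4. On all 6 libraries DESeq2, at the same thresholds, called 523 genes higher (2.44%) and 364 lower (1.7%), together 4.15%. The study itself lists 1143 genes as changed in this comparison, by an earlier version of DESeq2 at the same thresholds. limma-voom with weights for library quality called 388 higher (1.9%) and 302 lower (1.48%), together 3.38%, and its weights were 1.66, 1.35 and 1.11 for the osbzip62 replicates and 0.581, 2.24 and 0.310 for the Nipponbare replicates.

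**Figure D2:**
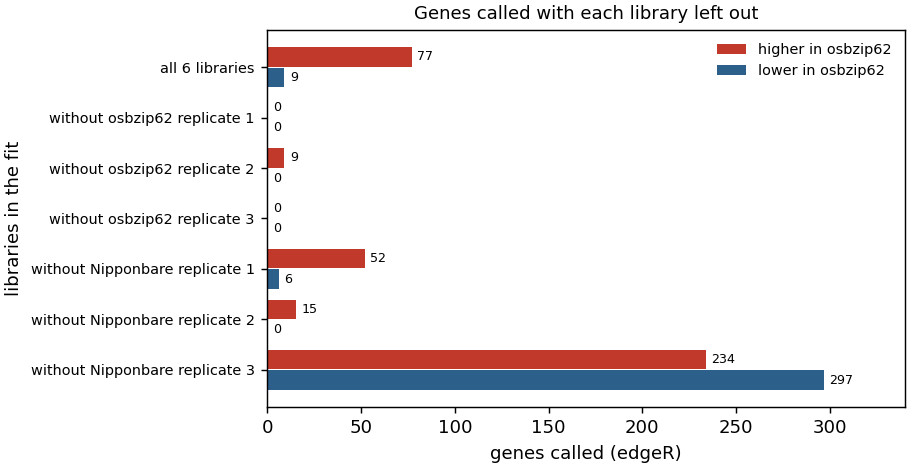
Bars give the number of genes called by edgeR higher (red) or lower (blue) in osbzip62 with all 6 libraries and with each library left out. The count of lower genes is 9 with all libraries and 297 without Nipponbare replicate 3, and both counts are 0 without osbzip62 replicate 1 or 3.

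Several transcripts of osbzip62 leaves had no read at all in Nipponbare. Among genes with no count in any Nipponbare library, 32 had at least 30 counts over the osbzip62 libraries, and 21 of these had 10 or more in each of the 3. Of the 32, 21 passed the low-count filter and 10 were called. In the OsbZIP62V libraries 17 of the 32 had no count and 8 had at least 30. LOC_Os07g02430, a hypothetical protein, had 122, 136 and 103 CPM in osbzip62 and 0 in Nipponbare, at least 2021-fold higher if the 3 Nipponbare libraries together held up to 3 counts. LOC_Os03g02470 had 93.1, 85.8 and 95.7 CPM in osbzip62 and none in Nipponbare (at least 1532-fold higher). For LOC_Os03g18779 the values were 35.5, 39.1 and 35.3 CPM in osbzip62 and 0 in Nipponbare, at least 614-fold higher. These 3 genes were among the 6 called in 4 of the 6 fits that left out a library.

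The only one of the 10 with an annotated enzyme function was a cytochrome P450 gene, LOC_Os06g10260, whose family oxidises small molecules such as hormones and defence compounds. Its level was 16.6, 20.8 and 21.6 CPM in osbzip62 and 0 in Nipponbare, at least 329-fold higher. It had no count in the 6 libraries of the other line and its wild type either. LOC_Os03g31560, annotated as a retrotransposon protein, had 12.9, 17.4 and 17.3 CPM in osbzip62 and 0 in Nipponbare (at least 265-fold higher). The bounds for the other 5 were 33.9 for LOC_Os07g26100, 38.6 for OS03G0282232, 47.5 for LOC_Os01g49750, 80.8 for LOC_Os02g53240 and 102 for LOC_Os03g43100. A further 4 called genes had 1 to 3 counts in Nipponbare, 3 of them with a locus name. The ratio was 75.8 (95% counting interval 20.7 to 631) for LOC_Os02g54790, an RNA-binding-type protein, 181 (32.1 to 7181) for LOC_Os10g24004, and 423 (144 to 2053) for LOC_Os10g34409, a transposon protein. These intervals and bounds cover counting error only.

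The called genes were found on all chromosomes, from 1 of 1333 tested on chromosome 8 (0.075%) to 13 higher and 1 lower of 1571 on chromosome 7 (0.891%), which carries OsbZIP62. In 2 cases neighbouring genes were both called: OS02G0772100 with LOC_Os02g53240, and LOC_Os10g28340 with LOC_Os10g28350. The libraries do not mark strand, so reads of overlapping or antisense partners cannot be told apart. Of the 86 called genes 79 could be paired with a locus name, and 43 of those had an annotated function, 38 higher and 5 lower.

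**Figure D3:**
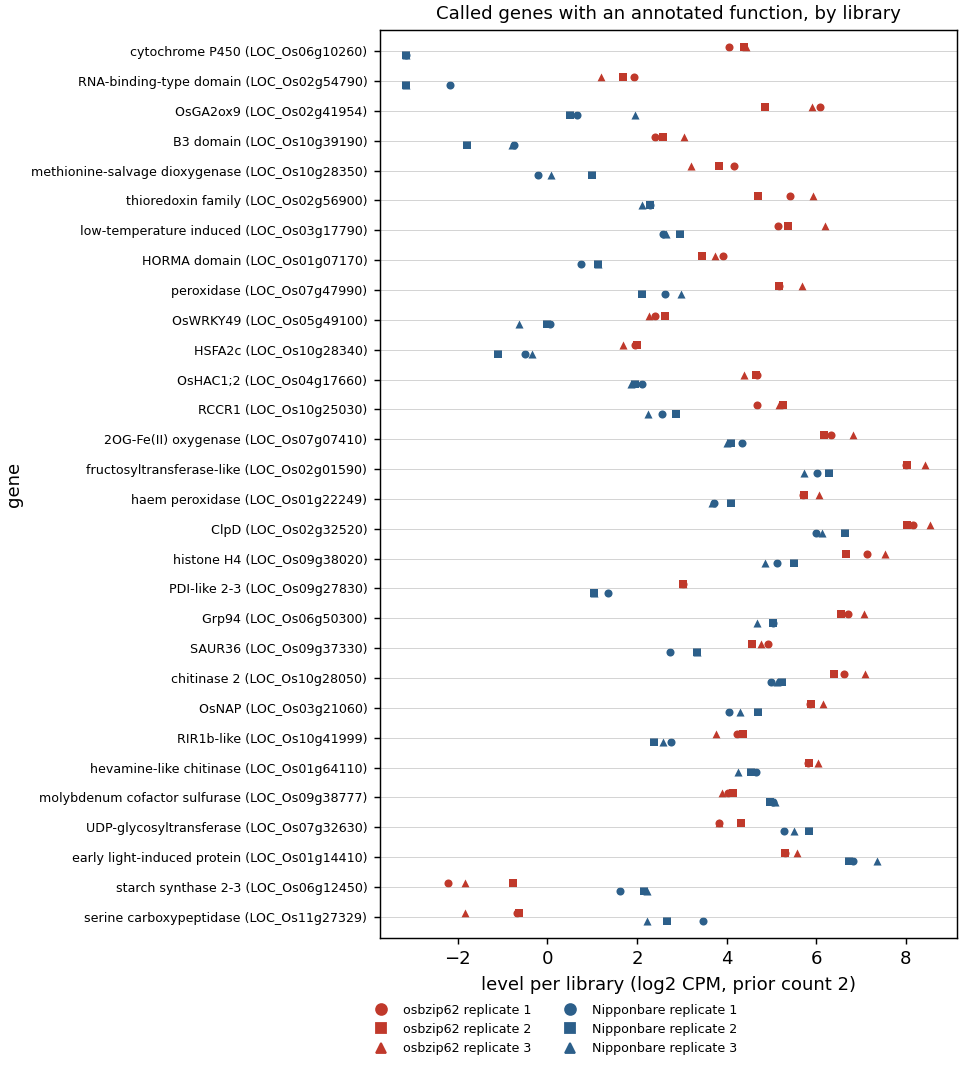
Level per library in log2 CPM (x axis, prior count of 2) of the called genes chosen by the naming rule that carry an annotated function, with osbzip62 replicates in red and Nipponbare replicates in blue. In every row the 3 osbzip62 libraries stand apart from the 3 Nipponbare libraries, to the right for genes that rose and to the left for the 5 at the bottom that fell.

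OsGA2ox9 (LOC_Os02g41954), an oxidase of the family that inactivates the growth hormone gibberellin, rose. It had 68.0, 28.9 and 59.6 CPM in osbzip62 and 1.46, 1.30 and 3.76 CPM in Nipponbare. The lowest osbzip62 library was 2.91 log2 units above the highest Nipponbare library, against a Nipponbare range of 1.45 (log2 fold change 4.59, SE 0.54, edgeR adjusted p = 0.0294). The other 4 of 5 tested genes of gibberellin metabolism did not pass. Of the 5, 3 came from the authors' table of genes changed in osbzip62. At an unadjusted p under 0.05 (edgeR) 2 were higher and 1 lower. DESeq2 called 2 higher and 1 lower, and limma-voom 1 higher and 0 lower. A gene of the B3 DNA-binding domain family (LOC_Os10g39190) had 5.18, 5.83 and 8.17 CPM in osbzip62 and 0.488, 0.178 and 0.470 CPM in Nipponbare (log2 fold change 4.05, SE 0.43, edgeR adjusted p = 0.0219). OsWRKY49 (LOC_Os05g49100), of a transcription factor family active in defence, had 5.18, 6.10 and 4.67 CPM in osbzip62 and 0.922, 0.888 and 0.537 CPM in Nipponbare (2.75, SE 0.31, edgeR adjusted p = 0.0273). Low counts underlie both of these genes, yet the groups were more than 2 log2 units apart.

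The heat stress factor HSFA2c (LOC_Os10g28340), whose class turns on chaperone genes in heat, had 3.74, 3.87 and 3.11 CPM in osbzip62 and 0.597, 0.355 and 0.671 CPM in Nipponbare (log2 fold change 2.71, SE 0.35, edgeR adjusted p = 0.0394). OsbZIP63 (LOC_Os07g48820), a bZIP gene of the TGA type, had 63.3, 47.8 and 60.1 CPM in osbzip62 and 24.3, 22.5 and 26.7 CPM in Nipponbare (1.22, SE 0.16, edgeR adjusted p = 0.0408). It falls outside the rule for named genes and was chosen after its values were seen. OsNAP (LOC_Os03g21060), a NAC factor of leaf senescence, had 57.8, 59.3 and 70.9 CPM in osbzip62 and 16.4, 25.9 and 19.6 CPM in Nipponbare, a gap of 1.15 log2 units against a Nipponbare range of 0.65 (1.60, SE 0.21, edgeR adjusted p = 0.0394).

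Several genes of enzymes or enzyme families rose. OsHAC1;2 (LOC_Os04g17660), an arsenate reductase, had 25.6, 24.97 and 20.7 CPM in osbzip62 and 4.23, 3.79 and 3.56 CPM in Nipponbare. Its gap of 2.26 log2 units was far wider than the Nipponbare range of 0.24 (log2 fold change 2.62, SE 0.17, edgeR adjusted p = 0.00528), and it was called in 4 of the 6 fits that left out a library. A dioxygenase gene of the methionine salvage pathway (LOC_Os10g28350), which recycles the by-product of ethylene and polyamine synthesis, had 17.8, 14.2 and 9.12 CPM in osbzip62 and 0.759, 1.89 and 0.940 CPM in Nipponbare (3.51, SE 0.43), with ranges of 0.96 log2 units in osbzip62 and 1.20 in Nipponbare. A thioredoxin family gene (LOC_Os02g56900) had 42.5, 25.9 and 60.6 CPM in osbzip62 and 4.77, 4.796 and 4.23 CPM in Nipponbare, with a range of 1.23 log2 units in osbzip62 and 0.18 in Nipponbare (3.22, SE 0.33).

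A fructosyltransferase-like gene (LOC_Os02g01590), whose relatives handle sucrose in the vacuole, had 256, 259.6 and 346 CPM in osbzip62 and 65.1, 77.7 and 52.8 CPM in Nipponbare (2.14, SE 0.22, edgeR adjusted p = 0.0209). A gene of the 2OG-Fe(II) oxygenase family (LOC_Os07g07410) had 80.3, 72.1 and 113 CPM in osbzip62 and 20.3, 17.0 and 16.0 CPM in Nipponbare (2.32, SE 0.22). A gene with a HORMA domain (LOC_Os01g07170) had 15.1, 10.9 and 13.3 CPM in osbzip62 and 1.57, 2.07 and 2.08 CPM in Nipponbare (2.78, SE 0.23). The gaps between the groups of these 3 genes were 1.72, 1.82 and 2.32 log2 units. The aldehyde dehydrogenase OsALDH7 (LOC_Os09g26880), a detoxifying enzyme chosen after its values were seen, had 114, 135 and 156 CPM in osbzip62 and 44.5, 46.5 and 39.4 CPM in Nipponbare (1.63, SE 0.17, edgeR adjusted p = 0.0215).

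The 9 genes that fell included 5 with an annotated function. A serine carboxypeptidase gene (LOC_Os11g27329) had 0.513, 0.530 and 0.167 CPM in osbzip62 and 11.0, 6.28 and 4.56 CPM in Nipponbare (log2 fold change -4.14, SE 0.54, edgeR adjusted p = 0.0394). Soluble starch synthase 2-3 (LOC_Os06g12450), an enzyme that lengthens the chains of amylopectin, had 0.103, 0.477 and 0.167 CPM in osbzip62 and 2.98, 4.32 and 4.56 CPM in Nipponbare (-3.95, SE 0.56, edgeR adjusted p = 0.0499). Both were rare transcripts in osbzip62, with under 1 CPM in each library.

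An early light-induced protein gene (LOC_Os01g14410), of a family that binds chlorophyll and protects it from excess light, had 39.4, 39.7 and 47.2 CPM in osbzip62 and 114, 106 and 165 CPM in Nipponbare (-1.61, SE 0.21, edgeR adjusted p = 0.0394). A UDP-glycosyltransferase gene (LOC_Os07g32630) had 14.2, 19.98 and 14.1 CPM in osbzip62 and 38.9, 56.8 and 45.6 CPM in Nipponbare (-1.55, SE 0.22, edgeR adjusted p = 0.0499). A gene annotated by a C-terminal domain of molybdenum cofactor sulfurase (LOC_Os09g38777) had 16.3, 17.4 and 14.8 CPM in osbzip62 and 32.5, 31.4 and 34.0 CPM in Nipponbare. Its Nipponbare range was only 0.11 log2 units (-1.01, SE 0.14, edgeR adjusted p = 0.0408), but its fold lies at the minimum of 1 and it was not called in any of the 6 fits that left out a library. The largest fall without an annotated function was that of LOC_Os03g31730, with 0.564, 0.742 and 0.667 CPM in osbzip62 and 26.4, 12.6 and 5.30 CPM in Nipponbare (-4.48, SE 0.63, edgeR adjusted p = 0.0499).

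Genes were also read by 19 lists of shared function. A list member could be included only if its locus could be paired, and that needed the gene to stand in the authors' tables of changed genes for one of the lines. The share and direction of a list are therefore no independent evidence, and the number of its members from the authors' osbzip62 table is given beside each count. The median log2 fold change of all tested genes was -0.04. Of all tested genes, 0.377% were called higher and 0.0441% lower. An unadjusted p under 0.05 (edgeR) was reached by 8.67% (higher) and 8.19% (lower). The groups were apart for 12.8% (higher) and 9.86% (lower).

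**Figure D4:**
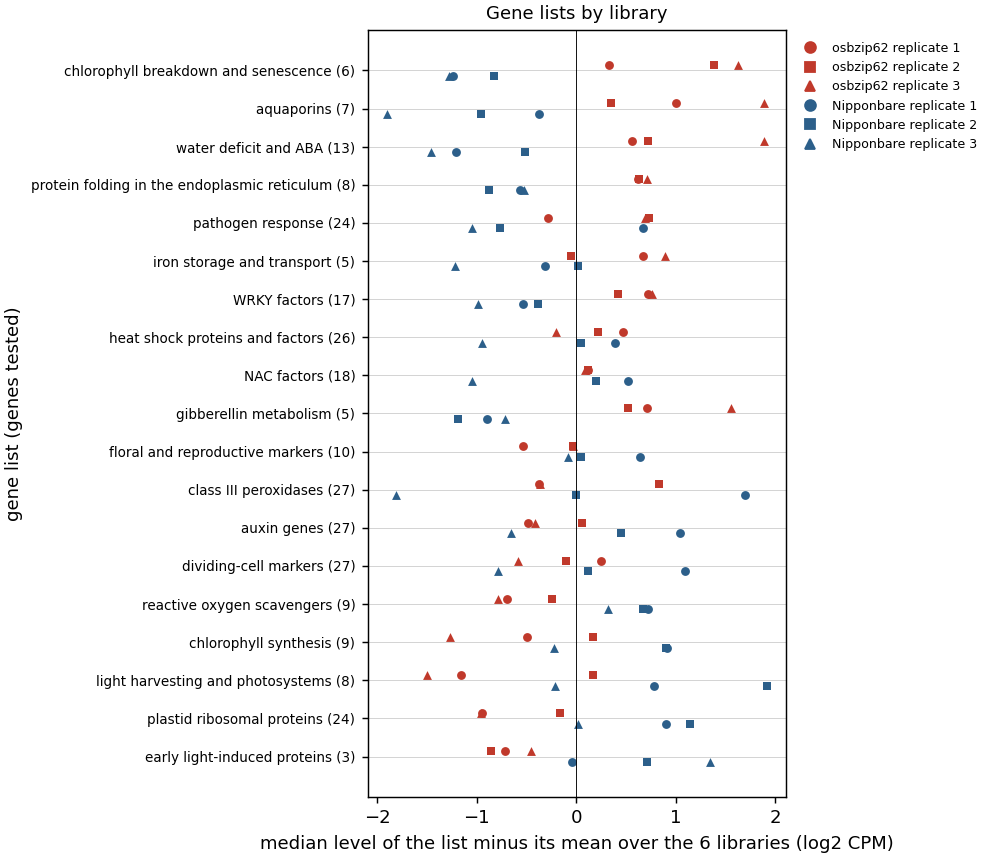
For each list (number of tested genes in parentheses), points give the median level of its genes in a library minus the mean of the 6 such medians, in log2 CPM, with osbzip62 in red and Nipponbare in blue. Senescence genes stand higher in all 3 osbzip62 libraries, and for most lists with lower values Nipponbare replicate 3 lies nearer to the osbzip62 libraries than Nipponbare replicates 1 and 2.

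Genes of chlorophyll breakdown and senescence were higher in osbzip62. Of 6 tested, all from the osbzip62 table, 2 rose and 0 fell, 6 had an unadjusted p under 0.05, and the groups were apart for all 6 (median log2 fold change 2.05). RCCR1 (LOC_Os10g25030), which opens the way to colourless chlorophyll catabolites, had 25.5, 38.4 and 35.9 CPM in osbzip62 and 5.80, 7.22 and 4.63 CPM in Nipponbare (2.49, SE 0.24, edgeR adjusted p = 0.0196). OsNAP, given above, was the other gene that rose. Pheophytinase (LOC_Os06g24730), which removes the phytol tail, had 109, 153 and 121 CPM in osbzip62 and 59.3, 58.2 and 64.3 CPM in Nipponbare (1.07, SE 0.17, edgeR adjusted p = 0.0569). Isocitrate lyase (LOC_Os07g34520) and malate synthase (LOC_Os04g40990), the enzymes of the glyoxylate cycle that turns fatty acids to sugar, varied within the mutant: isocitrate lyase had 3.18, 74.3 and 109 CPM in osbzip62 and 0, 0.296 and 0 CPM in Nipponbare, and malate synthase had 14.8, 52.3 and 73.1 CPM in osbzip62 and 3.15, 8.64 and 0.940 CPM in Nipponbare. In both genes osbzip62 replicate 1 was the lowest of the mutant libraries. DESeq2 called all 6 of the list, and limma-voom 3. In bulk leaves, fewer cells of a type and less RNA per cell cannot be told apart.

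Genes of the endoplasmic reticulum (ER) that fold or move secreted proteins were higher with the narrowest spread of these lists in the mutant (median range 0.34 log2 units in osbzip62 and 0.61 in Nipponbare). Of 8 tested, all from the osbzip62 table, 2 rose and 0 fell, 8 had an unadjusted p under 0.05 and the groups were apart for all 8 (median 1.52). Grp94 (LOC_Os06g50300), an ER member of the Hsp90 family, had 104, 93.7 and 134 CPM in osbzip62 and 32.7, 32.6 and 25.5 CPM in Nipponbare (1.87, SE 0.20, edgeR adjusted p = 0.0215). The disulfide isomerase-like gene PDIL2-3 (LOC_Os09g27830) had 8.00, 8.00 and 8.06 CPM in osbzip62 and 2.44, 1.95 and 1.95 CPM in Nipponbare (1.92, SE 0.21, edgeR adjusted p = 0.024). The Hsp70 chaperone BiP1 (LOC_Os02g02410) had 116, 104 and 146 CPM in osbzip62 and 55.4, 36.5 and 25.9 CPM in Nipponbare (1.63, SE 0.30, edgeR adjusted p = 0.075). DESeq2 called 8, limma-voom 7, and edgeR 4 without Nipponbare replicate 1 and 6 without replicate 3.

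Of 26 tested heat shock proteins and factors, 11 of them from the osbzip62 table, 2 rose and 0 fell (median 0.61). HSFA2c was one. The other was ClpD (LOC_Os02g32520), a plastid chaperone whose expression is known from dehydration and senescence, with 285, 261 and 374 CPM in osbzip62 and 63.9, 99.6 and 70.3 CPM in Nipponbare (1.98, SE 0.24, edgeR adjusted p = 0.0331). A cytosolic Hsp82 gene (LOC_Os08g39140) had 67.6, 34.3 and 67.2 CPM in osbzip62 and 13.7, 16.4 and 13.0 CPM in Nipponbare (1.97, SE 0.29, edgeR adjusted p = 0.0503). Members stood on both sides, with 12 higher and 3 lower at an unadjusted p under 0.05.

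Genes of water deficit and ABA tended to higher values, but most did not pass. Of 13 tested, 11 from the osbzip62 table, 1 rose and 0 fell, 10 were higher at an unadjusted p under 0.05, and the groups were apart for 11 (median 1.76). The gene that rose was a low-temperature-induced protein gene (LOC_Os03g17790) with 35.5, 41.3 and 73.1 CPM in osbzip62 and 5.86, 7.70 and 6.17 CPM in Nipponbare (2.92, SE 0.31, edgeR adjusted p = 0.0226). The dehydrin Rab21 (LOC_Os11g26790), a protein of drying cells, had 1.74, 1.01 and 1.95 CPM in osbzip62 and 0.0542, 0.178 and 0 CPM in Nipponbare (edgeR adjusted p = 0.0766). OsABF1 (LOC_Os01g64730), a bZIP factor of ABA signalling, had 30.4, 32.8 and 65.9 CPM in osbzip62 and 12.8, 15.6 and 9.73 CPM in Nipponbare (1.76, SE 0.35, edgeR adjusted p = 0.0799). The homeodomain gene HOX24 (LOC_Os02g43330) had 12.1, 14.9 and 53.9 CPM in osbzip62 and 3.25, 2.25 and 2.89 CPM in Nipponbare (3.26, SE 0.62, edgeR adjusted p = 0.0766). In these last examples osbzip62 replicate 3 was the highest library, and no Nipponbare library reached the lowest osbzip62 library. DESeq2 called 10 of the list higher and limma-voom 5. A DREB2B-like gene of dehydration (LOC_Os02g43940), not a member of this list, had lower values in osbzip62 and is given below.

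Of 24 tested pathogen response genes, 16 from the osbzip62 table, 3 rose and 0 fell, and 16 were higher at an unadjusted p under 0.05 (median 1.43). Chitinase 2 (LOC_Os10g28050), of a family that digests fungal cell walls, had 97.7, 84.6 and 136 CPM in osbzip62 and 31.8, 37.5 and 35.0 CPM in Nipponbare (1.61, SE 0.21, edgeR adjusted p = 0.0394). A hevamine-like chitinase (LOC_Os01g64110) had 55.8, 57.0 and 66.0 CPM in osbzip62 and 25.1, 23.1 and 19.0 CPM in Nipponbare (1.41, SE 0.16, edgeR adjusted p = 0.0283). An RIR1b-like gene (LOC_Os10g41999) had 18.7, 20.5 and 13.6 CPM in osbzip62 and 6.67, 5.09 and 5.91 CPM in Nipponbare (1.57, SE 0.21, edgeR adjusted p = 0.043). The list had a median range of 1.25 log2 units in osbzip62 and 1.10 in Nipponbare. A Bowman-Birk proteinase inhibitor gene (LOC_Os01g03330) had 64.3, 74.8 and 154 CPM in osbzip62 and 19.5, 25.6 and 12.6 CPM in Nipponbare (edgeR adjusted p = 0.0718).

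Of 17 tested WRKY factors, 12 from the osbzip62 table, OsWRKY49 alone was called, while 14 were higher and 1 lower at an unadjusted p under 0.05 (median 1.07). OsWRKY30 (LOC_Os08g38990) had 15.9, 13.1 and 16.0 CPM in osbzip62 and 7.27, 7.401 and 7.52 CPM in Nipponbare (1.02, SE 0.16, edgeR adjusted p = 0.056). OsWRKY76 (LOC_Os09g25060), a repressor of defence, had 198, 102 and 161 CPM in osbzip62 and 47.8, 50.7 and 33.6 CPM in Nipponbare (1.80, SE 0.29, edgeR adjusted p = 0.0592). Of 18 NAC factors, 9 from the osbzip62 table, OsNAP rose and 0 fell (median 0.54). The drought gene OsNAC10 (LOC_Os11g03300), one of the genes the study tested for binding by OsbZIP62, had 20.7, 34.4 and 34.7 CPM in osbzip62 and 9.55, 6.63 and 2.68 CPM in Nipponbare (2.24, SE 0.46, edgeR adjusted p = 0.0838).

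Class III peroxidases, secreted enzymes that make or use hydrogen peroxide in the cell wall, went both ways. Of 27 tested, 12 from the osbzip62 table, 2 rose and 0 fell, with 10 higher and 5 lower at an unadjusted p under 0.05 (median -0.70). LOC_Os07g47990 had 35.8, 36.0 and 51.3 CPM in osbzip62 and 6.08, 4.20 and 7.79 CPM in Nipponbare (2.77, SE 0.28, edgeR adjusted p = 0.0209), and LOC_Os01g22249 had 52.2, 53.0 and 66.9 CPM in osbzip62 and 13.1, 16.9 and 12.7 CPM in Nipponbare (2.01, SE 0.19, edgeR adjusted p = 0.0165). The list had a median range of 1.28 log2 units in osbzip62 and 2.29 in Nipponbare, against 0.68 in Nipponbare over all genes.

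Of 9 tested scavengers of reactive oxygen, 5 from the osbzip62 table, none was called. Lower values at an unadjusted p under 0.05 were found for 5 and higher values for 0 (edgeR; median -1.02), and DESeq2 called 5 lower and limma-voom 4. A plastid Cu-Zn superoxide dismutase gene (LOC_Os08g44770) had 78.2, 107 and 73.5 CPM in osbzip62 and 224, 259 and 174 CPM in Nipponbare (-1.34, SE 0.22, edgeR adjusted p = 0.0664). Dehydroascorbate reductase (LOC_Os05g02530), which recycles ascorbate, had 184, 181 and 155 CPM in osbzip62 and 319, 314 and 418 CPM in Nipponbare (-1.01, SE 0.18, edgeR adjusted p = 0.0718). Peroxiredoxin 2E-2 (LOC_Os02g09940), a plastid peroxidase, had 34.0, 57.6 and 34.1 CPM in osbzip62 and 152, 202 and 91.8 CPM in Nipponbare (-1.83, SE 0.35, edgeR adjusted p = 0.0766). The groups were apart in all 3 genes, and cytosolic ascorbate peroxidase (LOC_Os07g49400) overlapped, with 179.9, 116 and 172 CPM in osbzip62 and 137, 150.4 and 185 CPM in Nipponbare.

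The plastid lists had lower values in osbzip62, and the edgeR calls of the plastid ribosomal proteins turned on 1 library. Of 24 tested plastid ribosomal proteins, all from the osbzip62 table, 0 were called by edgeR, 24 were lower and 0 higher at an unadjusted p under 0.05, and the groups were apart for 19 (median -1.34). The median level of the list was 5.05, 5.84 and 5.04 log2 CPM in osbzip62 and 6.90, 7.14 and 6.02 log2 CPM in Nipponbare. The lowest Nipponbare library, replicate 3, nearly met the highest mutant library, osbzip62 replicate 2. Without Nipponbare replicate 3, edgeR called 23 of the 24 lower, and without replicate 1 it called 0. DESeq2 called 24 and limma-voom 23. The 30S protein S6 alpha gene (LOC_Os03g62630) had 67.2, 86.2 and 65.5 CPM in osbzip62 and 171, 202 and 137 CPM in Nipponbare (-1.22, SE 0.20, edgeR adjusted p = 0.0643).

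Of 9 genes of chlorophyll synthesis, 7 from the osbzip62 table, 0 were called by edgeR, 8 were lower at an unadjusted p under 0.05 (median -1.08), DESeq2 called 6 and limma-voom 5. The groups were apart for only 3 of the 9. The median level of the list in Nipponbare replicate 3 (5.28 log2 CPM) lay below that in osbzip62 replicate 2 (5.67). The magnesium-protoporphyrin methyltransferase gene (LOC_Os06g04150) had 16.1, 25.4 and 17.7 CPM in osbzip62 and 42.7, 42.2 and 38.7 CPM in Nipponbare (-1.06, SE 0.20, edgeR adjusted p = 0.0766). PORA (LOC_Os04g58200), the light-dependent reductase of early greening, had 32.2, 366 and 17.4 CPM in osbzip62 and 434, 84.5 and 2.15 CPM in Nipponbare. It spread over 4.38 log2 units within osbzip62 and 7.59 within Nipponbare. Of 8 genes of light harvesting and photosystems, 4 from the osbzip62 table, 0 were called by edgeR, 5 were lower at an unadjusted p under 0.05 (median -1.14), DESeq2 called 4 and limma-voom 3. The groups were apart for 4 of the 8. Here too the list median in Nipponbare replicate 3 (8.18 log2 CPM) lay below that in osbzip62 replicate 2 (8.55). The type I chlorophyll-binding protein gene (LOC_Os01g52240) had 164, 963 and 92.1 CPM in osbzip62 and 1509, 5808 and 73.4 CPM in Nipponbare, so that Nipponbare replicate 3 was the lowest of all 6. Of 3 early light-induced protein genes, all from the osbzip62 table, LOC_Os01g14410 fell and the other 2 did not pass (-1.45 and -1.27).

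Aquaporins, the channels that let water cross membranes, had no called gene among 7 tested, 6 of them from the osbzip62 table, while 6 were higher and 0 lower at an unadjusted p under 0.05 (edgeR; median 1.91), DESeq2 called 5 and limma-voom 3. PIP1-1 (LOC_Os02g44630) had 1538, 1207 and 2169.8 CPM in osbzip62 and 490.0, 565 and 697 CPM in Nipponbare (1.49, SE 0.28, edgeR adjusted p = 0.0766), with every osbzip62 library above every Nipponbare library. Of 5 genes of iron storage and transport, all from the osbzip62 table, 0 were called by edgeR, 3 were higher and 2 lower at an unadjusted p under 0.05, and DESeq2 called the same numbers in each direction, as did limma-voom. The ferritin genes OsFER1 (LOC_Os11g01530) and OsFER2 (LOC_Os12g01530) are near-identical copies between which reads may be split. OsFER2 had 1566, 1225 and 1653 CPM in osbzip62 and 641, 704 and 525 CPM in Nipponbare (1.25, SE 0.22, edgeR adjusted p = 0.0716). The vacuolar iron transporter OsVIT2 (LOC_Os09g23300) had 105, 63.6 and 122 CPM in osbzip62 and 19.2, 11.7 and 6.24 CPM in Nipponbare (2.96, SE 0.45, edgeR adjusted p = 0.0552).

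Of 27 tested auxin genes, 13 from the osbzip62 table, 1 rose and 0 fell, with 6 higher and 9 lower at an unadjusted p under 0.05 (median -0.91). SAUR36 (LOC_Os09g37330), of a family of small proteins induced by auxin, had 30.4, 23.6 and 27.3 CPM in osbzip62 and 6.56, 10.1 and 10.1 CPM in Nipponbare (1.61, SE 0.22, edgeR adjusted p = 0.0408). The groups did not overlap in this gene.

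Markers of other tissue states differed within the groups. Dividing-cell markers, 27 of 31 tested and 10 from the osbzip62 table, summed to 966, 764 and 1104 CPM in osbzip62 and 1089, 559 and 396 CPM in Nipponbare, with none of the 31 at 0 in all 6 libraries. A histone H4 gene (LOC_Os09g38020) rose, with 140.4, 102 and 187 CPM in osbzip62 and 35.0, 45.6 and 28.8 CPM in Nipponbare (1.97, SE 0.28, edgeR adjusted p = 0.0499), and no marker fell. At an unadjusted p under 0.05, 6 were higher and 4 lower. The median log2 fold change of the 27 was -1.02, with 18 below 0 and 9 above. Floral and reproductive markers, 10 of 12 tested and 6 from the osbzip62 table, summed to 513, 283 and 645 CPM in osbzip62 and 228, 177 and 107 CPM in Nipponbare, and 0 were called by edgeR (3 higher and 3 lower at an unadjusted p under 0.05; DESeq2 and limma-voom called 2 higher and 2 lower). In osbzip62 most of that sum was a pollen Ole e I and extensin family gene (LOC_Os10g13850), which had 442, 191 and 489 CPM in osbzip62 and 61.9, 75.4 and 50.7 CPM in Nipponbare (2.58, SE 0.38, edgeR adjusted p = 0.0509). The 10 tested floral and reproductive markers had a median log2 fold change of -0.62, with 7 below 0 and 3 above. The sums of both lists ranked Nipponbare replicate 1 above replicate 3. The part of leaf stage or tissue make-up in the changes above was not tested.

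A set of transcripts was nearly restricted to Nipponbare replicate 1. With no count in any osbzip62 library and at least 30 in Nipponbare, 73 genes were found, of which 1 passed the filter and 0 were called. In 64 of them over 90% of the Nipponbare counts came from replicate 1. Their counts summed to 0 in osbzip62 and to 12787, 331 and 40 in Nipponbare replicates 1, 2 and 3. In the other line the same 73 genes summed to 1320, 65 and 5543 in the OsbZIP62V replicates and to 21, 52 and 20 in Kitaake.

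Among the genes whose promoters the study tested for binding by OsbZIP62, 3 showed the same pattern. The wax gene OsGL1 (LOC_Os02g56920), a CER1-like protein of the leaf surface, had 0, 0 and 0.0556 CPM in osbzip62 and 144, 0.237 and 0 CPM in Nipponbare. A lipid-transfer protein gene (LOC_Os11g02350) had 0, 0.0530 and 0 CPM in osbzip62 and 64.1, 0.0592 and 0 CPM in Nipponbare. A class III peroxidase gene (LOC_Os07g01370) had 0, 0.795 and 0.0556 CPM in osbzip62 and 24.0, 0.0592 and 0 CPM in Nipponbare. All of these were below the filter and untested, and Nipponbare replicates 2 and 3 were close to the osbzip62 libraries. OsNAC10, given above, and the carotene hydroxylase gene DSM2 (LOC_Os03g03370), which acts in the pathway to precursors of ABA, had the opposite order. DSM2 had 33.9, 27.0 and 55.3 CPM in osbzip62 and 12.2, 16.3 and 21.8 CPM in Nipponbare (1.21, SE 0.33, edgeR adjusted p = 0.141). By qPCR the study reports OsNAC10 and DSM2 as lower in osbzip62 mutants than in WT, unlike the order in these libraries. The photosystem II repair gene PSB27-H1 (LOC_Os03g21560) had 113, 146 and 111 CPM in osbzip62 and 219.5, 401 and 236 CPM in Nipponbare (-1.21, SE 0.27, edgeR adjusted p = 0.103), with the groups apart in all libraries. DESeq2 called OsNAC10 and DSM2 higher and PSB27-H1 lower. The limma-voom calls were the same for OsNAC10 and PSB27-H1, and DSM2 was not called by it. Of the 83 genes the study lists as moving oppositely in its lines that could be paired, 63 were tested and 0 called by edgeR. They were chosen for lower values in these libraries, and their median Nipponbare range was 1.34 log2 units (0.20 to 5.50). Their median log2 fold change was -1.43. The groups were apart and lower in osbzip62 for 32, and apart and higher for 0. Over all tested genes these shares were 9.86% and 12.8%. The gap between the groups exceeded the Nipponbare range in 4.

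Other genes that the study names were also not called by edgeR. A DREB2B-like gene (LOC_Os02g43940), of a transcription factor family of dehydration, had 1.59, 1.54 and 1.56 CPM in osbzip62 and 7.27, 6.04 and 2.42 CPM in Nipponbare (-1.75, SE 0.42, edgeR adjusted p = 0.117). A gene like G-box binding factor 1 (LOC_Os05g49420) had 85.0, 83.9 and 106 CPM in osbzip62 and 59.1, 57.8 and 51.5 CPM in Nipponbare (0.71, SE 0.15, edgeR adjusted p = 0.099). The groups were apart in both genes, in opposite directions. By qPCR the study reports both as lower in osbzip62 mutants, which differs from the order here for the G-box factor gene. The NAC gene OsSWN2 (LOC_Os08g02300) had 0.103, 0.954 and 0.556 CPM in osbzip62 and 3.58, 1.60 and 1.34 CPM in Nipponbare, and LOC_Os03g20760 had 0.667, 0.318 and 0.556 CPM in osbzip62 and 2.50, 1.24 and 2.21 CPM in Nipponbare. The auxin-responsive gene IAA31 (LOC_Os12g40900) had 1.13, 4.93 and 0.945 CPM in osbzip62 and 19.0, 23.4 and 3.15 CPM in Nipponbare. An inactive heme oxygenase gene (LOC_Os03g27770) had 5.74, 10.1 and 4.06 CPM in osbzip62 and 36.1, 40.3 and 7.52 CPM in Nipponbare. In IAA31 and the heme oxygenase gene the groups overlapped, and Nipponbare replicate 3 lay below osbzip62 replicate 2. A SAUR gene (LOC_Os12g43110) was untested, with 0 CPM in osbzip62 and 0.597, 0.414 and 0 CPM in Nipponbare. DESeq2, at the same thresholds, called the DREB2B-like gene, LOC_Os03g20760, IAA31 and the heme oxygenase gene lower. It did not call the G-box factor gene or OsSWN2. Of these genes limma-voom called only the DREB2B-like gene and the heme oxygenase gene, both lower.

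The genes called in osbzip62 were then read in the other line, whose comparison of OsbZIP62V with Kitaake shares no library with this one. There 3.87% of tested genes were called higher and 2.06% lower. Of the 77 genes that rose in osbzip62, 64 were tested in OsbZIP62V, and 20 also rose (26.0% of the 77 and 2.60% of the 769 that rose in OsbZIP62V), while 3 fell. Of the 9 that fell in osbzip62, 8 were tested there, of which 0 rose and 1 fell. The difference between the effects of the lines had an adjusted p under 0.05 (edgeR, all 12 libraries) for 35 of the 77 and for 5 of the 9, against 7.1% of all genes, and it was positive, meaning a larger log2 fold change in osbzip62, in 34 of the 35 and in 0 of the 5. Of the 20 genes that rose in both lines it passed for 2. Lists chosen by a call in one line lean to a larger value in that line, so these shares describe the genes and support nothing further.

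**Figure D5:**
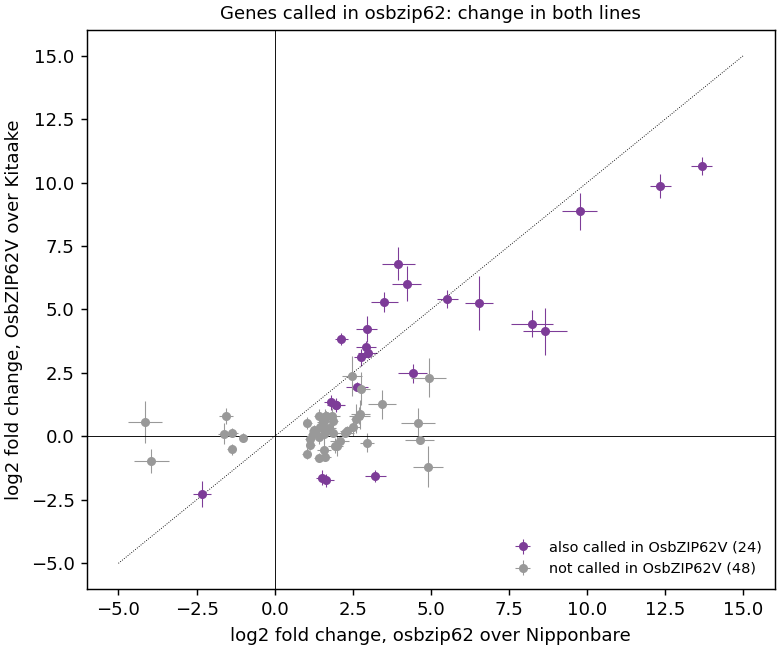
Genes called in osbzip62 that were tested in both lines, with the log2 fold change of osbzip62 over Nipponbare on the x axis and of OsbZIP62V over Kitaake on the y axis, bars giving the standard error and the dotted line equal values. Purple points were also called in OsbZIP62V, 20 of them higher in both lines, and the points at the far right have no Nipponbare count, so their position depends on the prior count.

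Some of the largest rises were shared. LOC_Os03g02470, absent from Nipponbare, had 119.7, 139 and 103 CPM in OsbZIP62V and 0, 0.125 and 0.0503 CPM in Kitaake. LOC_Os03g18779, also absent from Nipponbare, had 46.8, 39.4 and 58.3 CPM in OsbZIP62V and 0, 0 and 0.101 CPM in Kitaake. LOC_Os03g43100 had 4.07, 2.92 and 3.63 CPM in OsbZIP62V and 0 in Kitaake, but LOC_Os07g02430 had no count in OsbZIP62V. The low-temperature-induced gene LOC_Os03g17790 had 128, 145 and 81.8 CPM in OsbZIP62V and 8.70, 11.0 and 10.9 CPM in Kitaake (3.52), and its effects did not differ by the test between lines (difference of osbzip62 minus OsbZIP62V -0.56, edgeR adjusted p = 0.421). LOC_Os10g28350 of methionine salvage had 44.6, 45.0 and 23.3 CPM in OsbZIP62V and 0.916, 0.563 and 1.31 CPM in Kitaake (5.30). The fructosyltransferase-like gene LOC_Os02g01590 had 169, 184 and 212 CPM in OsbZIP62V and 9.04, 15.7 and 14.1 CPM in Kitaake (3.85), and there the difference passed, with the larger effect in OsbZIP62V (-1.67, edgeR adjusted p = 0.0156).

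Other genes differed between the lines. The thioredoxin family gene LOC_Os02g56900 fell in OsbZIP62V, with 12.5, 11.96 and 7.37 CPM there and 28.5, 38.1 and 27.8 CPM in Kitaake (difference 4.83, edgeR adjusted p = 0.00178). Grp94 had 36.7, 44.7 and 43.4 CPM in OsbZIP62V and 37.1, 37.3 and 39.6 CPM in Kitaake (difference 1.78, edgeR adjusted p = 0.00333), and PDIL2-3 had 2.35, 2.92 and 3.96 CPM in OsbZIP62V and 3.43, 4.06 and 4.38 CPM in Kitaake (difference 2.34, edgeR adjusted p = 0.0044). In both chaperone genes the groups overlapped in that line. The hevamine-like chitinase had 26.7, 23.5 and 30.2 CPM in OsbZIP62V and 40.5, 59.0 and 44.6 CPM in Kitaake, a log2 fold change of -0.84 that is short of the fold minimum (difference 2.30, edgeR adjusted p = 0.00189). OsGA2ox9 had 2.30, 2.38 and 0.935 CPM in OsbZIP62V and 0.343, 1.81 and 1.56 CPM in Kitaake, with none of these libraries near the osbzip62 levels (difference 4.13, edgeR adjusted p = 0.0195).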

How the data were processed

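RNA from rice leaves was sequenced in 12 libraries, of which the 3 osbzip62 and 3 Nipponbare libraries were compared. Groups came from the labels. The authors made TruSeq libraries, trimmed the reads and aligned them with HISAT2 2.1.0, and processing notes of the submitters list IRGSP-1.0, HTSeq 0.6.1p2 and Bowtie2 2.2.3. No annotation release was found in these sources. The authors deposited raw read counts, whole numbers for each gene, beside RPKM. The deposited RPKM equals the count over gene length and library total and was used only to pair identifiers. Nothing states that replicates were grown apart, so p-values measure the spread between these pooled samples.

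Counts were scaled by TMM, filtered with filterByExpr and tested with the quasi-likelihood test of edgeR 4.0.16 in R 4.3.3, on the 6 libraries. The study's own tool, DESeq2 (1.42.0), was an alternative, as were limma 3.58.1 (voom with quality weights), RLE factors, no filter, all 12 libraries, no fold minimum, the replicate number as a block, and each library left out. The F statistic and the fold change gave the standard errors. The range of a group is the highest minus the lowest log2 CPM, with a prior count of 2. CPM of every gene is scaled by the TMM factor of its library, tested or not. Where Nipponbare had no count, folds are lower bounds that allow 3 counts. The script was tested on simulated data. Tables were written with matplotlib 3.10.9, pandas 2.3.3, numpy 2.4.6 and scipy 1.17.1 in Python 3.11.15.

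Deposited identifiers were paired with 2895 loci through fold columns of the authors' tables, to within a relative difference of 6e-06. Those columns served only for pairing, and 213 of the 216 loci that could be paired in each table got 1 identifier. The names and annotations come from those tables. The guide comes from the study's primer table. No genome or promoter table was used here.

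Named genes are OsbZIP62, loci the study names for its RNA-seq, qPCR or one-hybrid results, the 15 higher and up to 9 lower called genes of largest change with an annotated function, the 6 with the widest gap between groups, and from each list up to 4 called members, or the 2 of smallest p where none was called. Not every gene under this rule is reported here. List members printed beyond that rule, the unannotated called genes and the genes absent from a group were chosen after their values were seen. The members and the 19 lists were chosen with earlier results of these data known.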

Additional observations from a re-analysis of the deposited data

How the results depend on the processing

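Against 77 genes called higher and 9 lower in osbzip62, DESeq2 called 523 and 364, limma-voom with quality weights 388 and 302, a fit of all 12 libraries 365 and 156, and edgeR without the low-count filter 109 and 14. All 77 higher genes were shared with DESeq2 and with limma-voom, as were 9 and 8 of the lower genes. RLE factors gave 73 and 9, and dropping the fold minimum gave 77 and 9. With each replicate left out in turn the counts ran from 0 to 234 higher and from 0 to 297 lower. With the replicate number as a block, 0 genes were called higher and 0 lower (edgeR; 1554 and 1414 at an unadjusted p under 0.05). Deviations of same-numbered libraries from their group means correlated at -0.27, 0.23 and 0.40, and not every library correlated best with its own number. Deviations within a group are not independent, so these correlations cannot exclude a shared batch. The labels give only a replicate number, and the samples were not treated as pairs. For the 55 named genes that were tested, 660 values under the alternatives gave 422 with the same direction and call, 164 that lost the call, 74 that gained it and 0 that changed direction. The median log2 fold change of all genes was -0.038 in the main fit. Over the other settings it ran from -0.081 (DESeq2) to -0.0066 (limma-voom). The main limits are the spread of the Nipponbare libraries, 1 mutant line, and list members that could be named only through the authors' tables of changed genes.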
